A study of Mus musculus with 4 samples.

Results

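The SLAM family is a group of surface receptors of blood cells, encoded here by Ly9, Slamf7, Cd48, Slamf1, Cd84 and Slamf6, together with the adaptor protein SAP, encoded by Sh2d1a. These 7 genes, of 21938 protein-coding genes in the annotation, were chosen by name, and every open region overlapping a gene body or the 20 kb on either side of it was taken. The rule selected 186 of the 338790 deposited open regions, counted over 4 replicates. Accessible DNA was mapped with ATAC-seq, in which a transposase cuts and tags open chromatin, in primary mouse Th17 cells, the CD4 T cells that make interleukin 17. The 4 replicates formed a single group from strain C57BL/6NJ with 1 donor identifier, unknown age, no recorded sex and no treatment named. No second condition exists, so comparisons run between genes and regions, no p-value is given, and the spread between replicates is that of these 4 samples.

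Most SLAM receptors bind the same receptor on a neighbouring cell, while CD48 is anchored in the membrane by a lipid and serves as the ligand of CD2 and CD244. The tails of most of the receptors carry tyrosine motifs that recruit SAP, which brings in the kinase Fyn, and phosphatases bind the same motifs when SAP is missing. The pathway is known for the contact between T and B cells, for natural killer T cell development and, when SH2D1A is lost in humans, for X-linked lymphoproliferative disease. ATAC-seq measures openness of DNA, not the amount of RNA or protein.

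The sequences that follow lie under the summits of the strongest regions around the genes, whose values come after them. A region's strength is its deposited signal value, the authors' measure of enrichment. Its percentile is the share of that replicate's regions with a value no higher than its own. Each window holds 101 bases centred on the summit, read 5′ to 3′ on the plus strand of GRCm38 (mm10). Capitals mark matches, on either strand, to 12 consensus strings searched: AP-1 (TGANTCA), RUNX (TGTGGT), ETS (GGAAGT), NFAT (TGGAAA), STAT (TTCNNNGAA), ROR (AGGTCA), TCF/LEF (CTTTGAT), T-box (AGGTGT), the GATA family (AGATAA), and IRF, NF-kB and CTCF by name. The first 3 windows carry the summits of the strongest intergenic regions of the receptor cluster, the next 2 those inside Slamf6 and Cd48, and the last that of Sh2d1a.
Between Ly9 and Slamf7, chr1:171627989-171628089: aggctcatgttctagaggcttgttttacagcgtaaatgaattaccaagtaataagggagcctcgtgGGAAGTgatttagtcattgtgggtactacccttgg
Between Slamf1 and Cd84, chr1:171815889-171815989: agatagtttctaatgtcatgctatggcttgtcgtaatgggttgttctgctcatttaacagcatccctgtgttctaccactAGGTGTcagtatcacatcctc
Upstream of Cd84, chr1:171827844-171827944: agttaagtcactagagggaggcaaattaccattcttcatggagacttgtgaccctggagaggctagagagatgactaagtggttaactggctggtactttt
Slamf6 intron, chr1:171939131-171939231: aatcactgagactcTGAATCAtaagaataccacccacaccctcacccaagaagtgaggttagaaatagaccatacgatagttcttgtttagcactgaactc
Cd48 intron, chr1:171685006-171685106: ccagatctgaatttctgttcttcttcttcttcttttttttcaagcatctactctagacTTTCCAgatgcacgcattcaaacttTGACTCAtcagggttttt
Downstream of Sh2d1a, chrX:42540790-42540890: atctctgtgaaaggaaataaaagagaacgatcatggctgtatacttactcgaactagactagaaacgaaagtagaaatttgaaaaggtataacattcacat
The AP-1 string stood in the Slamf6 and Cd48 windows, the second with an NFAT string beside it. The window between Ly9 and Slamf7 held an ETS string, the one between Slamf1 and Cd84 held a T-box string, and the windows upstream of Cd84 and downstream of Sh2d1a held none of the 12.

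Promoter windows of 300 bases around the RefSeq start are shown for 4 of the 5 genes found in the RefSeq table for GRCm38.p6: the strongest of these 5 promoters (Slamf7), the 2 weakest (Cd48 and Slamf1) and the one with the most string matches (Cd84). They are read on each gene's own strand.
Slamf7, minus strand, chr1:171648950-171649249: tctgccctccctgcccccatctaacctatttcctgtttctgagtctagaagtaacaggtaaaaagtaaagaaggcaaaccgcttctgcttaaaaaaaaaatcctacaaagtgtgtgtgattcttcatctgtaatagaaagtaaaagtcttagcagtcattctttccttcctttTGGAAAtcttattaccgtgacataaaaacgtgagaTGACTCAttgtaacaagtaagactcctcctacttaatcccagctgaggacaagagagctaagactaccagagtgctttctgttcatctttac
Cd48, plus strand, chr1:171681742-171682041: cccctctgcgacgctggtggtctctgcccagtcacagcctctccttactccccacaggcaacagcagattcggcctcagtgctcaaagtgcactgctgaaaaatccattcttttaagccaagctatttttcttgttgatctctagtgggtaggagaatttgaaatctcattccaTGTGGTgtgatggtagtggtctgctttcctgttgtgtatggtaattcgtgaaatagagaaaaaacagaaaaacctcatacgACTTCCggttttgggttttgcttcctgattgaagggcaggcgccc
Slamf1, plus strand, chr1:171766882-171767181: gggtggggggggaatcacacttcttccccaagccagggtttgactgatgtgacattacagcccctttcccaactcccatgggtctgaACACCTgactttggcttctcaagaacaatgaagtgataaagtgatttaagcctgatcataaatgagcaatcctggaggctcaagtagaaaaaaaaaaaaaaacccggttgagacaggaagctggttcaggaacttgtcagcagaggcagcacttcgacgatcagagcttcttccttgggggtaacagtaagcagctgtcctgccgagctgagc
Cd84, plus strand, chr1:171839447-171839746: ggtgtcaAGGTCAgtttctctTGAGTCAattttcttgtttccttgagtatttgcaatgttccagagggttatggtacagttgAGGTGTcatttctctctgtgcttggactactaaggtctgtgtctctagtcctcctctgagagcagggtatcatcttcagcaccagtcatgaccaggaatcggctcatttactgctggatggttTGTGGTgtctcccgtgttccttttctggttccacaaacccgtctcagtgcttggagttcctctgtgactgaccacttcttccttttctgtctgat
The Slamf7 promoter held an NFAT and an AP-1 string, the Cd48 promoter a RUNX and an ETS string, and the Slamf1 promoter a T-box string. The Cd84 promoter held 4 matches, in the order ROR, AP-1, T-box and RUNX, while the Slamf6 promoter held none. Of all 32851 promoters in that table, 7.81% held the AP-1 string, 16.8% RUNX, 23.8% ETS, 21.4% NFAT, 16.3% ROR and 13.7% T-box. The 5 promoters had GC contents of 39.0% (Slamf7), 47.3% (Cd48), 49.0% (Slamf1), 46.7% (Cd84) and 48.3% (Slamf6), below the median of 52.7% over the table. Their ratios of observed to expected CpG were 0.270, 0.417, 0.223, 0.184 and 0.0571 in the same order, and only that of Cd48 exceeded the median of 0.384. Ly9 and Sh2d1a were not in the table.

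As a check of the label, promoters of the 5 Th17 markers given here (Il17a, Il17f, Il23r, Ccr6 and Rora) and all 4 T cell markers were open in 4 of 4 replicates. So was 1 marker each of CD8 T cells (Cd8b1, of 2), B cells (Pax5, of 4) and myeloid cells (Cd14, of 4), and none of 3 for NK cells, where Klrb1c was open in 3 replicates. Of all protein-coding genes, 64.1% had a promoter open in 4 of 4 replicates, so open marker promoters alone do not establish the label. The part of other cell types in the regions described here was not tested. The lists held 83991, 85202, 85375 and 84222 regions in replicates 1 to 4, and no pair of lists was identical. The deposited region names carry a tag, KS136 in replicates 3 and 4 and KS134 in replicates 1 and 2, and the words 72hrs and ASTARR.insert. The labels, which give the assay as ATAC-seq, explain none of these, and their bearing on the signal was not tested.

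The SLAM windows held 49, 45, 47 and 45 regions in replicates 1 to 4, or 46.5 ± 1.92 (SD, n = 4). Merged where they overlapped by at least 1 bp, these gave 50 regions, 36 on chromosome 1 and 14 on chromosome X. Of the 50, 41 (82.0%) had a region from every replicate and are called shared, against 68.0% of the 101015 merged regions genome-wide. A further 4 were found in 3 replicates, 2 in 2 and 3 in 1, and all of the last 3 lay in Sh2d1a. Between 85.7% and 93.5% of the regions of any pair of replicates were in both. One shared region, 8964 bp upstream of Cd48, counts in the windows of both Slamf7 and Cd48.

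The 6 receptor genes stand in a row on chromosome 1, in the order Ly9, Slamf7, Cd48, Slamf1, Cd84 and Slamf6, with Ly9 and Slamf7 on the minus strand. Their strongest shared regions lay between genes or in introns. Several promoters in the row carried low signal.

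**Figure D1:**
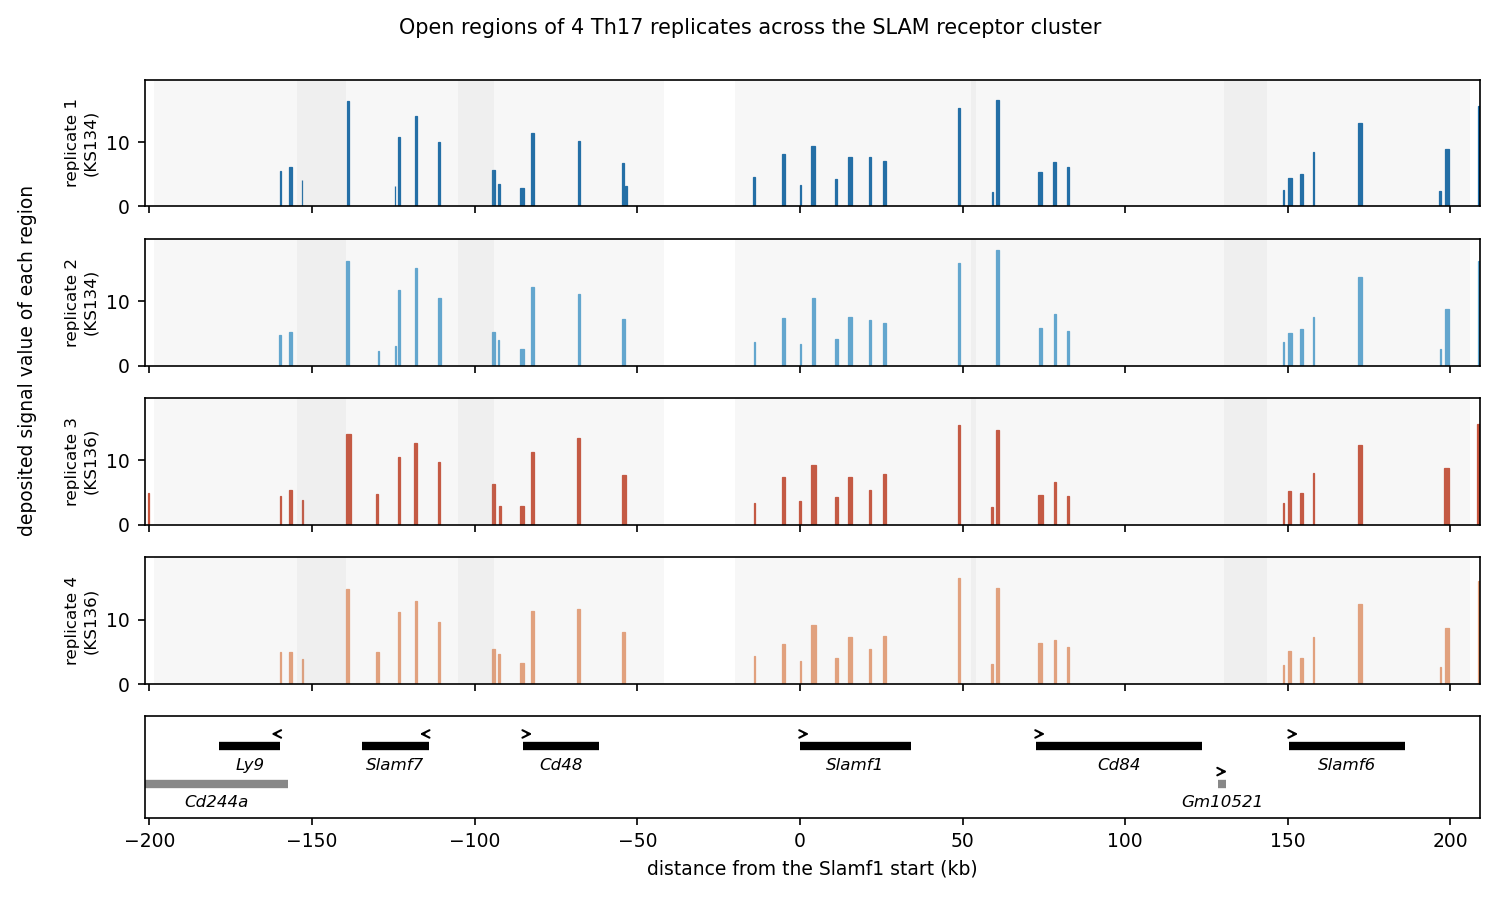
Open regions across the SLAM receptor cluster in each of the 4 replicates, as bars from the region's start to its end whose height is the deposited signal value (no unit), against distance from the Slamf1 start in kb. Grey shading marks the gene windows, darker where 2 windows overlap. The gene track below shows SLAM genes in black, other protein-coding genes in grey and arrows at the starts. The tall bar between Ly9 and Slamf7 and the pair between Slamf1 and Cd84 reached 14.1 to 17.9 in every replicate, while the bar at the Slamf1 start stayed between 3.26 and 3.64.

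Slamf1 encodes the self-binding receptor SLAM (CD150), which is also the entry receptor of measles virus in humans. Its gene (ENSMUSG00000015316.11, chr1:171767127-171801184, plus strand) had 9 shared regions, and 9 regions in each of the 4 replicates. The region at its start (chr1:171766975-171767589) had signals of 3.26, 3.32, 3.64 and 3.54 in replicates 1 to 4, a percentile of 18.9 ± 4.15 (SD, n = 4). That was the weakest of the 9 by mean percentile, though not in replicate 3 or by −log10 q, and 6.08% of all shared promoter regions lay lower. The strongest, between Slamf1 and Cd84 (chr1:171815624-171816219), had signals of 15.3, 15.9, 15.6 and 16.5, a percentile of 96.6 ± 1.70. Its summit was 23758 bp upstream of Cd84 and fell inside the Slamf1 window, outside that of Cd84. The next, in an intron 3940 bp after the start, had 9.34, 10.4, 9.32 and 9.09, a percentile of 73.1 ± 2.10. Ranked by −log10 q instead of signal, the order of these 2 turned round, with percentiles of 77.9 for the region between the genes and 89.8 for the intronic one. The promoter's signal was below that of both in every replicate.

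Slamf7 encodes the self-binding receptor CRACC (CD319), known from NK cells, plasma cells and cytotoxic T cells. Its gene (ENSMUSG00000038179.13, chr1:171632403-171653035, minus strand) had 5 shared regions and 7 regions in each replicate. The most upstream annotated start, at position 171653035, had no region within 1 kb in any replicate. The other 3 starts, from 171648927 to 171649007, shared a region (chr1:171648576-171649402) with signals of 14.0, 15.2, 12.7 and 12.9, a percentile of 90.9 ± 2.13 (SD, n = 4). Among all shared promoter regions, 81.2% lay lower, and this was the strongest SLAM promoter region. The strongest region of the window, between Ly9 and Slamf7 (chr1:171627668-171629080), had 16.3, 16.2, 14.1 and 14.8, a percentile of 95.6 ± 1.38. Its summit lay 20629 bp upstream of the Ly9 start. It fell outside the Ly9 window and was the stronger of the 2 in all 4 replicates.

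Cd84 encodes a self-binding receptor that helps T cells and B cells adhere to each other. Its gene (ENSMUSG00000038147.13, chr1:171839697-171890718, plus strand) had 4 shared regions, with 5, 4, 5 and 5 regions in replicates 1 to 4. The promoter region began at position 171840192, past the RefSeq promoter window shown above, and covered 3 internal starts from 171840565 to 171840633. It had signals of 5.40, 5.90, 4.61 and 6.30, a percentile of 44.1 ± 6.09 (SD, n = 4), with 20.3% of all shared promoter regions lower. The region 11803 bp upstream of the gene (chr1:171827297-171828325) had 16.5, 17.9, 14.8 and 14.9, a percentile of 96.9 ± 1.53. It was the strongest of all 41 shared regions by mean percentile. The next in the Cd84 window, in an intron 5888 bp after the start, had a percentile of 57.1 ± 3.66.

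Slamf6 encodes Ly108, a self-binding receptor, and in human T cells joint engagement of SLAMF6 and SLAMF3 (Ly9) has been reported to promote interleukin 17 production. Its gene (ENSMUSG00000015314.10, chr1:171917515-171953170, plus strand) had 6 shared regions, with 7, 7, 6 and 7 regions in replicates 1 to 4. The promoter region (chr1:171917229-171918337) had signals of 4.38, 5.02, 5.18 and 5.12, a percentile of 38.0 ± 5.19 (SD, n = 4), with 16.2% of all shared promoter regions lower. Internal starts at 171919492, 171931557 and 171942629 had no region within 1 kb in any replicate. The intronic region 21666 bp after the start (chr1:171938643-171939833) had 12.9, 13.8, 12.4 and 12.4, a percentile of 88.1 ± 0.954. The next, 48761 bp after the start and past the end of the gene, had a percentile of 69.0 ± 1.62. The intronic region was above the promoter region in every replicate, with no overlap of their percentiles.

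Ly9 encodes a self-binding receptor (CD229) of T and B cells. Its gene (ENSMUSG00000004707.14, chr1:171588624-171607410, minus strand) had 2 shared regions, with 3, 2, 3 and 3 regions in replicates 1 to 4. The promoter region (chr1:171607105-171607714) had signals of 5.57, 4.78, 4.53 and 4.95, a percentile of 38.1 ± 4.08 (SD, n = 4), with 16.3% of all shared promoter regions lower. The other, 2847 bp upstream, had 6.20, 5.25, 5.38 and 4.97, a percentile of 43.4 ± 5.25. The second was higher than the first in all 4 replicates, but their ranges over replicates overlapped. The body of Cd244a, a receptor for CD48, also covers the Ly9 promoter region. Of the 2 genes, only Ly9 has an annotated start within 1 kb of the region's summit. Whether the region also bears on Cd244a was not tested.

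Cd48, the ligand gene (ENSMUSG00000015355.13, chr1:171682009-171705258, plus strand), had 6 shared regions, with 7, 6, 6 and 6 regions in replicates 1 to 4. Its promoter region (chr1:171681030-171682412) had signals of 2.92, 2.62, 2.98 and 3.30, a percentile of 12.2 ± 4.49 (SD, n = 4). It was the weakest of the 6 by mean percentile, though not in replicate 3 or by −log10 q, and 3.36% of all shared promoter regions lay lower. An intronic region 3047 bp after the start (chr1:171684422-171685444) had 11.3, 12.1, 11.2 and 11.4, a percentile of 82.6 ± 1.08. A second, 17178 bp after the start, had 10.1, 11.1, 13.5 and 11.6, a percentile of 82.6 ± 7.10. By signal these 2 did not differ beyond their spread, and each ranked first in 2 of the 4 replicates. By −log10 q they parted, with percentiles of 90.2, 91.5, 91.1 and 91.4 for the region nearer the start and 60.8, 62.8, 73.0 and 67.7 for the other. By signal, both were above the promoter region in every replicate.

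Sh2d1a, the adaptor gene (ENSMUSG00000005696.11, chrX:42502453-42529330, plus strand), had 10 shared regions, none with a mean percentile above 58.3, and 13, 11, 13 and 10 regions in replicates 1 to 4. Its shared count, the highest of the 7 here, was below that of Slamf1 with a 10 kb flank (6 against 7), a −log10 q of at least 10 (6 against 8), the strongest 50000 regions (3 against 6) or summits within 100 bp (5 against 8). With gene bodies alone both had 6, and with a 50 kb flank both had 13. The region at its first starts (chrX:42502153-42504305) had signals of 6.52, 6.33, 7.06 and 5.57, a percentile of 51.7 ± 6.18 (SD, n = 4), with 25.8% of all shared promoter regions lower. Internal starts at 42514313 and 42526585, those of transcripts not annotated as coding, lay near regions with percentiles of 44.4 ± 5.28 and 13.2 ± 6.51. These were also present in all 4 replicates.

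The strongest region of the Sh2d1a window by signal (chrX:42540091-42541333) had 8.21, 6.98, 6.50 and 7.10, a percentile of 58.3 ± 4.54. It lay past the end of the gene, in an intron of Tenm1, a teneurin gene known from neurons, and ranked first in 3 of 4 replicates. The region next in strength, 20142 bp upstream of the start, had a percentile of 52.7 ± 2.44. Ranked by −log10 q, that upstream region came first, at a percentile of 65.3, and the Tenm1 region came after the promoter region, at 46.0 against 61.9. The order of these 3 thus rests on the value used. Just beyond the window limit, 1377 bp before it, a region outside the selection had signals of 11.7, 12.0, 10.1 and 10.8, above every region selected at Sh2d1a. Beyond the receptor cluster, the nearest region, 2301 bp after the Slamf6 window, had a percentile of 96.8 ± 1.08.

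**Figure D2:**
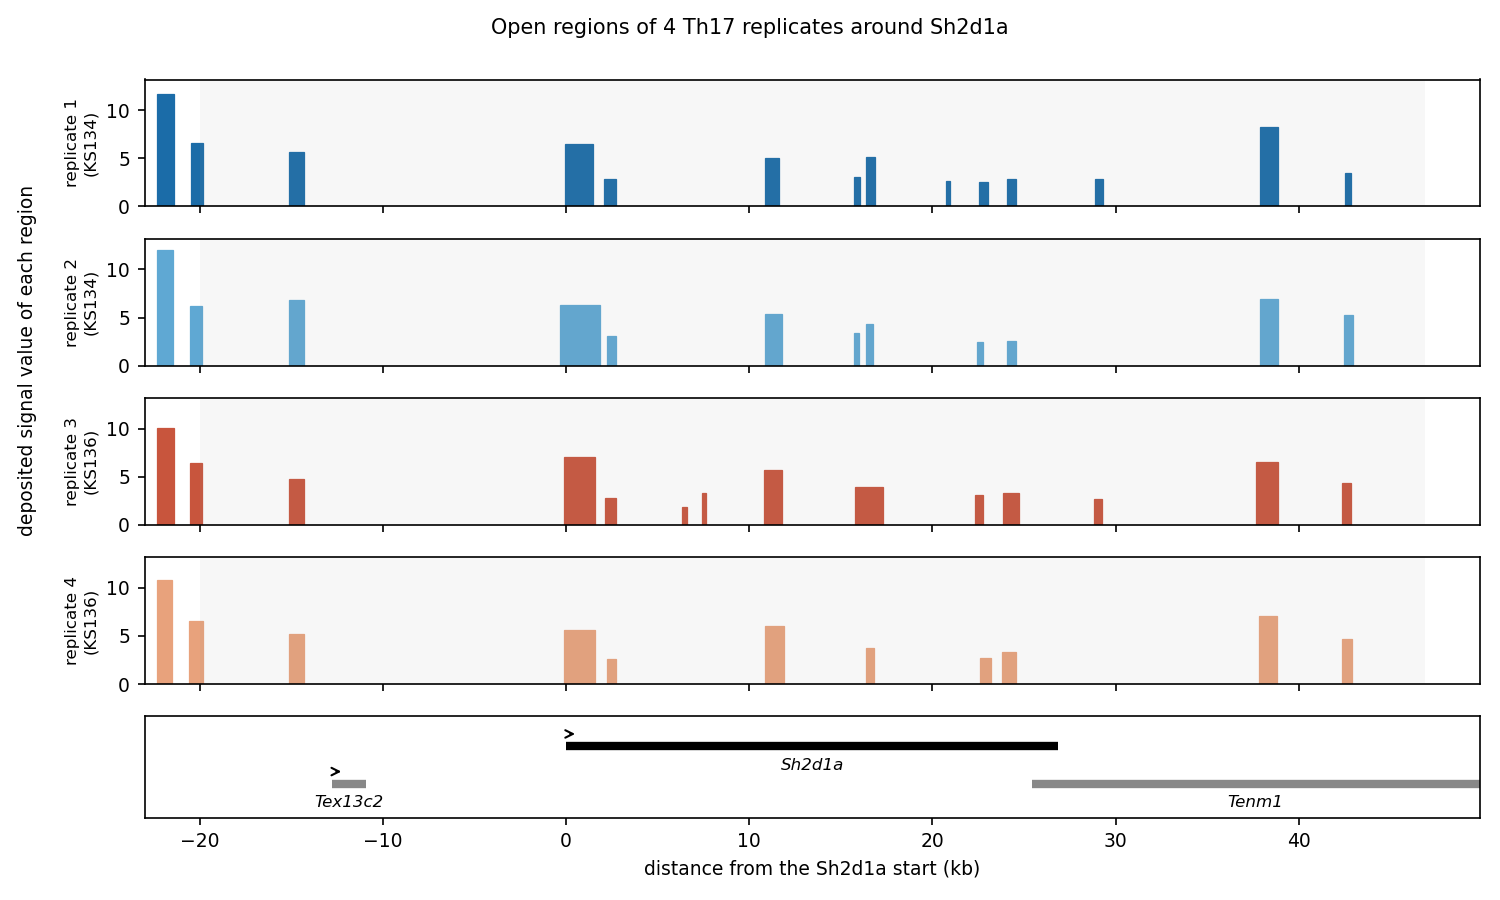
Open regions around Sh2d1a in each of the 4 replicates, as bars whose height is the deposited signal value (no unit), against distance from the Sh2d1a start in kb. Grey shading marks the gene window, and the gene track shows Sh2d1a in black and other protein-coding genes in grey. The regions selected at Sh2d1a did not pass 8.21 in any replicate, and the bar just left of the window stood at 10.1 to 12.0.

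By the mean signal percentile of the strongest region the genes ran Cd84, Slamf1, Slamf7, Slamf6, Cd48, Sh2d1a and Ly9, with percentiles of 96.9, 96.6, 95.6, 88.1, 82.6, 58.3 and 43.4. The first 3 overlapped in their ranges over replicates and had no order beyond that spread. From Slamf7 on, each gene's 4 signal percentiles lay above all 4 of the next. This order depends on the window of 20 kb and on the value ranked. The strongest regions of Cd84, Slamf1, Slamf7 and Ly9 lie between genes, and that of Sh2d1a lies past its end. By −log10 q the same regions stood at 92.5 (Slamf7), 91.1 (Cd48), 87.2 (Slamf6), 86.6 (Cd84), 77.9 (Slamf1), 49.9 (Ly9) and 46.0 (Sh2d1a).

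**Figure D3:**
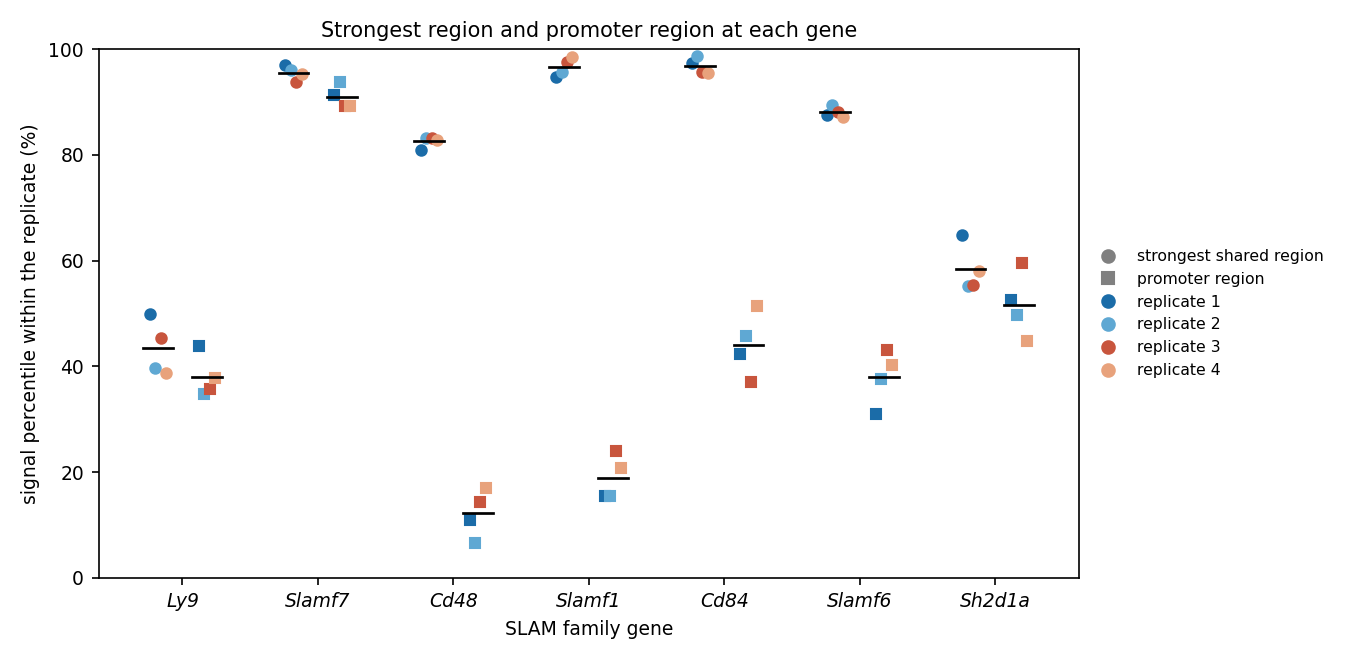
Signal percentile within each replicate (%) of the strongest shared region (circles, left) and the promoter region (squares, right) of each SLAM gene, coloured by replicate, with black lines at the means. The strongest region was picked by mean percentile with the promoter region included, so it cannot lie below it. The gap between the means was narrow at Slamf7 (95.6 against 90.9), Ly9 (43.4 against 38.1) and Sh2d1a (58.3 against 51.7). It was wide at Slamf1 (96.6 against 18.9) and Cd48 (82.6 against 12.2). By −log10 q the order turned round at Sh2d1a (46.0 against 61.9).

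All 7 SLAM genes had a promoter open in every replicate, that is, a region from each replicate within 1 kb of an annotated start. The same held for 64.1% of all protein-coding genes. With only the strongest 50000 regions of each replicate, 2 of the 7 promoters, those of Slamf7 and Sh2d1a, were open, against 55.5% of genes. The 9 shared promoter regions had a median percentile of 38.1, against 73.3 for all 15220 shared promoter regions. Slamf7 was above that median at 90.9, and the other 8 lay between 12.2 and 51.7. By −log10 q the medians were 47.1 for SLAM promoter regions and 80.5 for all. The 2 sets also differed in GC content: within 50 bp of the summit the median was 50.5% in the 9 regions, against 63.4% in all shared promoter regions. Its part in the lower promoter signal was not tested.

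Away from promoters the SLAM regions were close to the rest. The 17 intronic regions had a median percentile of 57.1, against 53.8 for all shared intronic regions, and the 14 intergenic ones 55.6, against 57.01. The 1 exonic region, in Slamf1, stood at 58.3, against a median of 46.7. By position, 22.0% of the 41 shared regions were at promoters, 2.44% in exons, 41.5% in introns and 34.1% between genes, against 22.2%, 3.56%, 39.0% and 35.3% of all shared regions. The median width was 883 bp, against 888 bp. The 4 regions with a mean percentile of at least 90 were those upstream of Cd84, between Slamf1 and Cd84 and between Ly9 and Slamf7, and the Slamf7 promoter region. Genome-wide 11.9% of shared regions reached that level, so 4 of 41 is near the background.

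**Figure D4:**
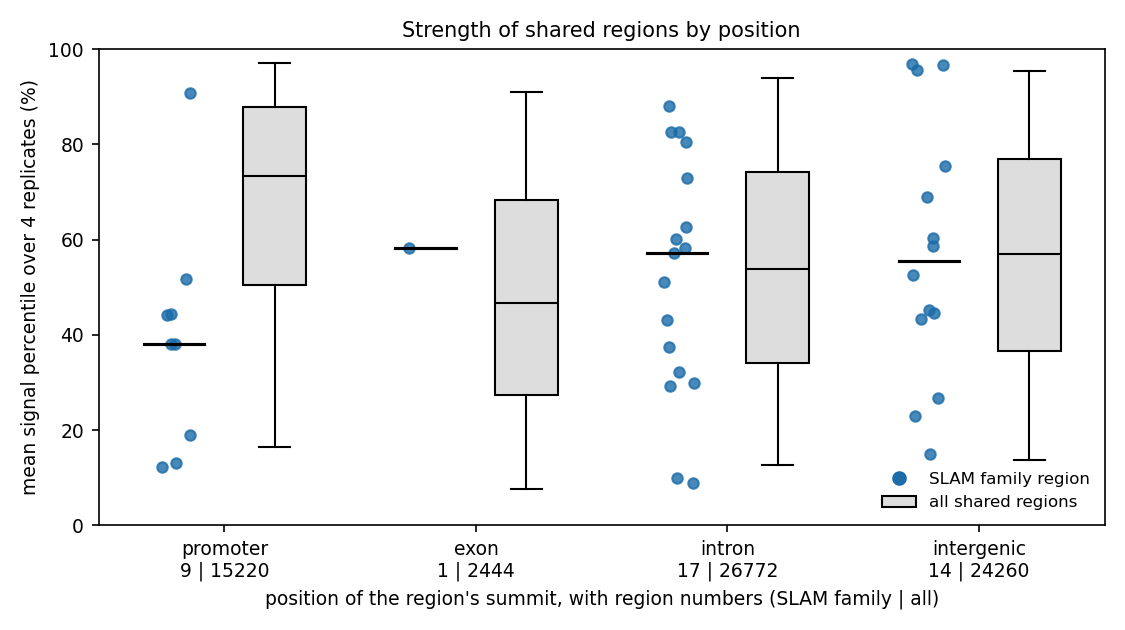
Mean signal percentile over 4 replicates (%) of shared regions by the position of their summit. Points are SLAM regions with a black line at their median, and grey boxes are all shared regions (quartiles and median, whiskers from the 5th to the 95th percentile). At promoters the SLAM median of 38.1 stood below the median of 73.3 of all, and the intron and intergenic medians differed by less than 4 points.

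Density of shared regions differed widely among the genes. It was 14.95 per 100 kb at Sh2d1a, higher than at 96.55% of protein-coding genes, and 12.2 at Slamf1, higher than at 90.5%. Cd48 had 9.49, Slamf7 8.25 and Slamf6 7.93, above 78.9%, 70.5% and 68.7% of genes. Cd84 had 4.39 and Ly9 3.40, below the genome median of 5.31. The covered share of the window was 12.0% ± 1.59 at Sh2d1a, 9.93% ± 0.658 at Slamf1, 4.26% ± 0.617 at Cd84 and 2.70% ± 0.203 at Ly9 (SD, n = 4). By signal, the strongest region at Sh2d1a was below those of 5 receptors.

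**Figure D5:**
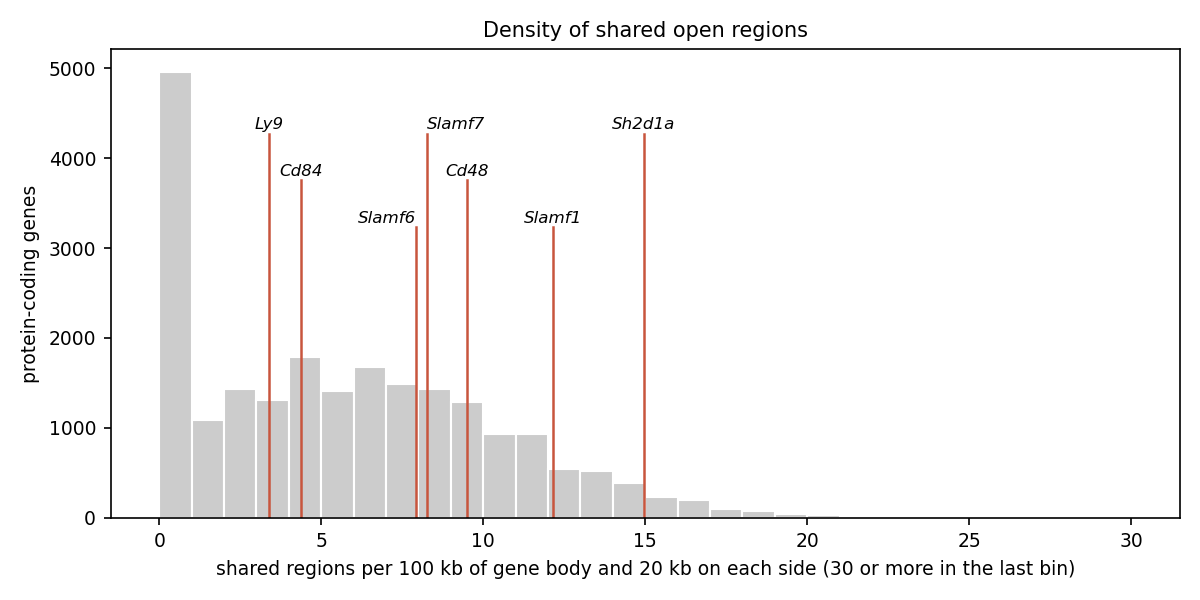
Number of protein-coding genes (grey bars) by the density of shared open regions, in regions per 100 kb of window (a gene body with 20 kb either side). Red lines mark the 7 SLAM genes, from 3.40 at Ly9 to 14.95 at Sh2d1a, around the median of 5.31 over all genes.

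Between the tags in the region names, 12 of the 41 shared regions had percentiles higher in both KS136 replicates than in both KS134 replicates, against 21.3% of all shared regions. A further 6 were lower in both KS136 replicates, against 21.1%. The region upstream of Cd84 had percentiles of 95.8 and 95.5 in KS136 replicates, against 97.3 and 98.8 in KS134 replicates. The region between Slamf1 and Cd84 had 97.5 and 98.5 in KS136 replicates, against 94.8 and 95.6 in KS134 replicates. These strong neighbours moved in opposite directions by a few points. The other regions with a mean percentile of at least 90 were both lower in KS136 replicates. The region between Ly9 and Slamf7 had 93.8 and 95.2 there, against 97.1 and 96.1 in KS134 replicates. The Slamf7 promoter region had 89.3 and 89.2, against 91.3 and 93.7. With 2 replicates a tag no exact test can pass 0.05.

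At the 32 shared SLAM regions away from promoters, the AP-1 string stood within 50 bp of the summit in 8, against 26.2% of all shared distal regions. AP-1 factors of the BATF and JUN families are known partners in Th17 chromatin, and 8 of 32 is near that background. Within 25 bp of the summit 2 of 32 held the string, against 13.9%, and within 100 bp 14 of 32, against 35.6%. The first lay below its background and the second above it, and neither gap was tested. RUNX strings were in 4 (background 14.8%), ETS in 4 (9.80%), NFAT in 4 (11.1%) and ROR in 3 (7.05%). STAT strings were in 2 (3.94%), TCF/LEF in 3 (2.11%), GATA in 1 (3.35%) and T-box in 1 (5.32%). No distal SLAM region held the IRF (2.01%), NF-kB (0.428%) or CTCF (2.21%) string. The 3 TCF/LEF matches were 3940 bp after and 5014 bp upstream of the Slamf1 start, and past the end of Slamf6. The median GC content of these regions was 44.1%, against 47.5% for all distal regions. At the 9 promoter regions, RUNX strings were in 3 (background 5.91% of all shared promoter regions). These lay at Ly9, Cd84 and the internal Sh2d1a start at 42514313. ETS strings were in 2 (11.5%), AP-1 in 1 (6.24%) and NFAT in 1 (4.67%), and the other strings in none. RUNX had the largest share of the 12 strings searched, and with 9 regions its excess was not tested. Within 25 bp of the summit RUNX strings were in 1 of 9 (background 2.95%), and within 100 bp in 4 (10.5%). The 9 regions had a lower median GC content than all shared promoter regions (50.5% against 63.4%), whose bearing on the strings was not tested. The strings overlap in letters with those of related factors, so a match names no factor.

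Of 14 other genes of the family and its signalling, 11 had promoters open in 4 of 4 replicates, against 64.1% of all protein-coding genes, and 3 had them open in none. The kinases Fyn and Lck, the PKC theta gene Prkcq and its downstream adaptor gene Bcl10 were open, with 24, 11, 21 and 6 shared regions. The phosphatase genes Ptpn6 (SHP-1), Ptpn11 (SHP-2) and Inpp5d (SHIP-1) were open too, with 10, 12 and 8, as was Csk, the inhibitory kinase gene, with 10. Cd2, a receptor for CD48 in mice, was open with 9 shared regions, and Cd244a with 5, of which 3 lie in SLAM windows. The family members Slamf9 and Slamf8 differed. Slamf9 was open with 4 shared regions. Slamf8 had 1 shared region and none within 1 kb of an annotated start in any replicate.

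The genes of the adaptors related to SAP had no region within 1 kb of an annotated start in any replicate. Sh2d1b1 (EAT-2) had no shared region, and Sh2d1b2 (ERT) had 3 within its window. Sh2d1a was thus the only SAP-family gene of the 3 with an open promoter in these replicates. The median density over the 14 genes was 10.9 shared regions per 100 kb, against 8.25 for the 7 SLAM genes and 5.31 for all genes. The protein-coding neighbours Gm10521, between Cd84 and Slamf6, and Tenm1 and Tex13c2, around Sh2d1a, had no open promoter in any replicate.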

How the data were processed

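Primary mouse Th17 cells were profiled by ATAC-seq in 4 replicates. The authors deposited 1 region list per replicate on mm10, per the file headers (the text notes deposited with each list). For aligner and peak caller, names and versions were not given in the sources used here. Every list holds the authors' signal value (enrichment, not normalised between replicates), deposited −log10 p and −log10 q values, and a deposited display score, which was not used. No counts are given, so depth is unknown and no counting intervals were computed.

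Autosomal (1 to 19) and sex-chromosome regions were merged over replicates (overlap of at least 1 bp) with pandas 2.3.3 and numpy 2.4.6 in Python 3.11.15. Genes and starts came from GENCODE M21, sequences from GRCm38.p6 through pysam 0.24.0, promoter sequences from RefSeq (GRCm38.p6), and plots from matplotlib 3.10.9. A promoter summit lay within 1 kb of an annotated start. Percentiles were computed within each replicate, and means and SDs over 4. Where a merged region held several regions of 1 replicate, the strongest of them was used. No test between groups was possible. The named genes are the 7 SLAM genes, the 14 pathway genes and protein-coding neighbours whose bodies overlap a window; the named regions are each gene's strongest, promoter and next region. Regions holding a TCF/LEF string, promoter regions holding a RUNX string, those just beyond a window and the other regions with a mean percentile of at least 90 were named after their values were seen. One listed marker is not reported here. The members and lists were chosen with earlier results of these data known. The merging, percentile and string functions were tested on simulated data. Alternatives were other flanks, promoter windows, region thresholds, overlaps, rank values and summit windows, and leaving out each replicate.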

Additional observations from a re-analysis of the deposited data

Results flagged for a closer look

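Of 55 quantities checked over the 4 replicates, 7 had 1 replicate standing apart from the other 3. Chance sets about 1 in 20 apart among independent continuous values. Region counts are not continuous, and counts and covered bp of a window are not independent, so that rate is no measure for these 7. The intronic region 5888 bp after the Cd84 start had a signal percentile of 62.6 in replicate 2, while the other 3 lay between 55.1 and 55.8. The Ly9 window held 2 regions in replicate 2 against 3 in the others, and 1408 covered bp in replicate 2 against 1624 to 1661. The Cd84 window held 4 regions in replicate 2 and 5 in the others. The Cd48 window held 7 regions in replicate 1 and 6 in the others, and the Slamf6 window 6 in replicate 3 and 7 in the others. The regions at Sh2d1a covered 9639 bp in replicate 3, against 7412 to 7708 bp in the other 3. A count that differs by 1 region in 1 replicate is enough to set that replicate apart.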

How the results depend on the processing

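Of 28 alternatives for the main counts and the promoter median, 22 stayed close to the reported value and 6 moved it. The 41 shared regions became 25 with gene bodies alone and 21 with only the strongest 50000 regions of each replicate. The strongest 50000 regions also left 2 of 7 promoters open. The 8 distal regions with an AP-1 string became 2 within 25 bp of the summit and 14 within 100 bp. The shares over all distal regions were 13.9% and 35.6%. A wider window around the same summit can only add matches, so counts of this and the other strings move with its width. Ranking by −log10 q, chosen after seeing the data, gave a promoter median of 47.1 in place of 38.1; the cause was not tested. Leaving out each replicate gave 41 to 43 shared regions, 7 open promoters each time and promoter medians of 38.1 to 40.3, the last also chosen after seeing the data. For single genes and motifs, 105 of 141 alternatives stayed close and 36 moved the value. No paired analysis was possible because there is 1 group. Depth is unknown, so weak regions missed in a replicate cannot be told from closed ones.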
